A study of Mus musculus with 6 samples.

Results

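The Egr, Nr4a and Ier genes with Btg2 are 10 immediate early genes outside the AP-1 family, and their transcripts were followed in long-term haematopoietic stem cells (LT-HSC) with and without the transcriptional regulator Prdm16. The genes are Egr1, Egr2, Egr3, Nr4a1, Nr4a2, Nr4a3, Ier2, Ier3, Ier5 and Btg2. They were chosen by name with earlier results of the same comparison known, so their differences between genotypes are given as a description. All 10 of 10 were found by NCBI gene ID among the 27179 genes of the table, and 7 of 10 reached the level needed for testing.

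Immediate early genes are transcribed within minutes of a stimulus, without new protein synthesis, when kinase cascades act on factors already bound at their promoters. Serum response factor with its ETS partners and the cAMP response element binding protein are the best known of these factors, and the transcripts are short-lived. Egr proteins are zinc-finger transcription factors, Nr4a proteins are orphan nuclear receptors, Ier genes encode small regulatory proteins and Btg2 is an antiproliferative protein of the BTG/TOB family. In mice, Egr1 and Nr4a receptors have been linked to stem cell quiescence, and the same genes are also induced by tissue handling and cell sorting.

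Both groups were adult C57BL/6 mice of 8 to 12 weeks carrying conditional Prdm16 alleles on both chromosomes (Prdm16-Mx1-Cko/Cko), and both received 5 pIpC injections. Control mice lacked the Mx1-Cre transgene (+/+, labelled WT) and knockout mice carried it (Tg/+, labelled Cko). Mx1-Cre is switched on by interferon, which pIpC induces, in many interferon-responsive cells and not in stem cells alone, and the controls had no Cre. For each genotype the marrow of 5 mice was combined. From it LT-HSC (Lin-Sca-1+c-Kit+CD48-CD150+) were sorted 5 weeks after pIpC as 3 technical replicates, so each group is 1 pool and p-values measure the spread between portions of it, not between animals.

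The 6 libraries held 36747729 to 43743795 reads. Prdm16 had 1630, 1860 and 1381 reads in control and 323, 388 and 643 in knockout, so reads of the gene were still present there. All 15 LT-HSC markers examined had at least 1 CPM (reads per 1000000 of the effective library size behind the authors' values) in 3 or more libraries, and their summed level was 4018 to 4165 CPM in control and 3885 to 4185 CPM in knockout. Kit, the receptor of stem cell factor, averaged 976.6 ± 57.5 CPM over control and 866.6 ± 105 CPM over knockout libraries (± SD here and below, n = 3). Markers of 9 other blood cell types, 91 genes in all, summed to 2536 to 2637 CPM in control and 5078 to 5227 CPM in knockout. Of these 91, 25 had 0 reads in every control library and 6 in every knockout library. By type the sums were 216.4 to 245.7 CPM in control and 713.3 to 931.2 CPM in knockout for neutrophil markers, and 0.624 to 6.37 and 553.9 to 653.9 CPM for eosinophil markers. B and plasma cell markers summed to 65.5 to 73.2 and 245.3 to 259.4 CPM, and macrophage and monocyte markers to 573.1 to 591 and 820.3 to 936.9 CPM. Sums for neutrophil precursor markers were 207.8 to 218.3 and 563.7 to 577.1 CPM, for mast cell and basophil markers 14.6 to 21.0 and 94.8 to 106.1 CPM, and for erythroid markers 57.5 to 79.7 and 99.2 to 106.3 CPM. Megakaryocyte and platelet markers summed to 1292 to 1358 and 1666 to 1834 CPM, and T and NK cell markers, whose ranges overlapped, to 76.2 to 101 and 94.8 to 122.3 CPM. The largest part of the control sum was megakaryocyte and platelet markers. Whether reads of these 91 genes came from other cells or from the sorted LT-HSC themselves cannot be told apart here. Their part in the results below was not tested. In bulk RNA, fewer cells with a transcript and less transcript per cell cannot be told apart.

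Egr1 and Ier2 were lower in knockout and were the 2 of 7 tested members that limma called (adjusted p below 0.05 over all genes). Among all 13018 tested genes 0.292% were called lower and 0.407% higher, and since the members were chosen with this comparison known nothing is read from their count. Another 3 members, Nr4a1, Nr4a2 and Ier3, had negative differences without being called, and Ier5 and Btg2 had positive ones. By voom on the recovered reads 2 members were called lower and 0 higher, beside 0.399% and 0.469% of all tested genes. At an unadjusted p under 0.05 limma had 3 members lower (Egr1, Ier2 and Ier3) and 0 higher, beside 4.72% of all tested genes lower and 5.58% higher. The groups did not overlap for Egr1, Ier2 and Ier3, all lower, and overlapped for the other 4. Of all tested genes 8.01% were lower without overlap and 8.52% higher. The members' median log2 difference was -0.21, beside 0.003 for all tested genes. Summed over the 10 members, control libraries held 728.2, 723.7 and 776.3 CPM and knockout libraries 502.2, 519.3 and 485.8 CPM. The sum dropped by 240.3 CPM, to which Ier2 gave 125.9 and Egr1 104.5.

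**Figure D1:**
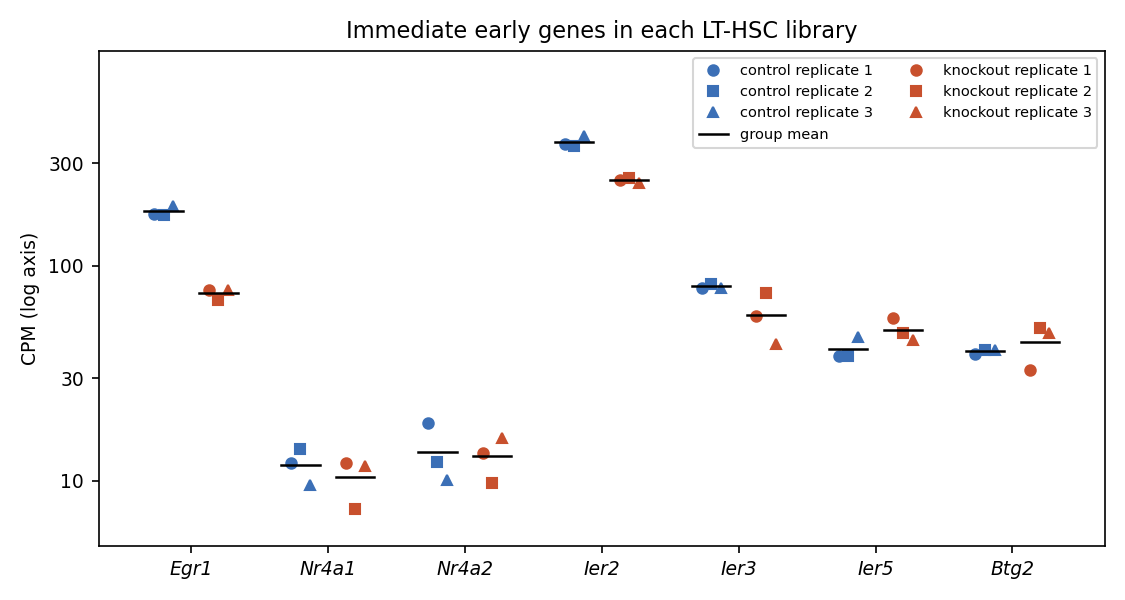
CPM (log axis) of the 7 tested members in each of the 3 control (blue) and 3 knockout (orange-red) libraries, with the replicate number as symbol shape and the group mean as a black line. Knockout points lie below all control points for Egr1, Ier2 and Ier3, and the groups overlap for the other 4 genes.

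Egr1, the most studied member of its family and a gene whose loss lets stem cells leave quiescence in mice, lies on chromosome 18 (34861207 to 34864956, NCBI gene ID 13653). Coordinates here and below are mm10, from RefSeq. No other gene of GENCODE M21 overlaps the span of a member. Egr1 had 174.2, 173.1 and 189.9 CPM in control and 76.86, 69.6 and 77.11 CPM in knockout. All knockout libraries were well below all control libraries, and each group was tight, with coefficients of variation of 5.25% and 5.72%. The log2 difference was -1.26 (SE 0.10, 95% interval -1.50 to -1.03), or 0.416 times the control level. This ranked 322 from the lowest among the 13018 tested genes. On leaving out each library in turn it stayed between -1.29 and -1.22.

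Egr2 and Egr3, the relatives of Egr1 that act in nerve myelination, muscle spindles and lymphocytes, were almost without reads. Egr2 (chromosome 10, 67534469 to 67542188) had 36 reads in knockout replicate 2 and 0 in the other 5 libraries. Egr3 (chromosome 14, 70077317 to 70082613) had 0 reads in all 6 libraries. Taking 3 reads as the limit that a count of 0 allows, levels up to 0.0687 to 0.0814 CPM, depending on the library, would have gone unseen, for counting error only. Beyond these 36 reads, the Egr reads of these libraries came from Egr1.

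Ier2, a nuclear protein of fast induction, was the most abundant member by CPM (chromosome 8, 84661331 to 84662852, gene ID 15936). It had 366.8, 362.6 and 399.8 CPM in control and 251.3, 256.6 and 243.8 CPM in knockout. The groups were separated, and the knockout libraries differed from each other by a coefficient of variation of 2.57%. The log2 difference was -0.59 (SE 0.07, 95% interval -0.75 to -0.42), or 0.666 times control. It stayed between -0.61 and -0.54 on leaving out each library, while the call was lost without the filter on low genes and without the mean-variance trend.

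Ier3, also called IEX-1 and known for effects on cell survival, had 79.23, 82.76 and 79.29 CPM in control (chromosome 17, 35821713 to 35822911). In knockout it had 58.17, 74.77 and 43.51 CPM, so the groups did not overlap but the knockout libraries were far apart. The coefficient of variation was 2.51% in control and 26.6% in knockout, where counting error alone gives 2.03%. The log2 difference of -0.49 (SE 0.18, 95% interval -0.90 to -0.07) was not called, and leaving out single libraries moved it between -0.68 and -0.29.

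Ier5, which acts with heat shock factor 1 and the phosphatase PP2A, had 38.21, 38.06 and 46.8 CPM in control and 57.14, 48.92 and 45.06 CPM in knockout (chromosome 1, 155096367 to 155099636). Control replicate 3 lay above knockout replicate 3, so the groups overlapped, with a log2 difference of 0.30 (SE 0.16, 95% interval -0.07 to 0.66). Within the Ier genes, then, Ier2 and Ier3 had negative values and Ier5 a positive one. Whether these differences differ from each other was not tested.

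Nr4a1 (Nur77, chromosome 15, 101253902 to 101274795) and Nr4a2 (Nurr1, chromosome 2, 57106830 to 57124003) were expressed at low levels in both genotypes. Nr4a1 had 12.08, 14.08 and 9.584 CPM in control and 12.12, 7.384 and 11.72 CPM in knockout. Nr4a2 had 18.58, 12.23 and 10.13 CPM in control and 13.42, 9.807 and 15.88 CPM in knockout. For both genes the groups overlapped, and the lowest knockout library was replicate 2. The log2 difference was -0.21 (95% interval -0.89 to 0.46) for Nr4a1 and -0.05 (95% interval -0.73 to 0.64) for Nr4a2. Replicates differed, with coefficients of variation of 18.9% and 25.2% for Nr4a1 and 32.2% and 23.4% for Nr4a2 in control and knockout. Counting error alone gives 4.27% to 4.85%. Nr4a3 (NOR-1, chromosome 4, 48045078 to 48086447), whose joint loss with Nr4a1 causes myeloid leukaemia in mice, had 0, 0 and 3 reads in control and 19, 0 and 0 in knockout, too few to compare.

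**Figure D2:**
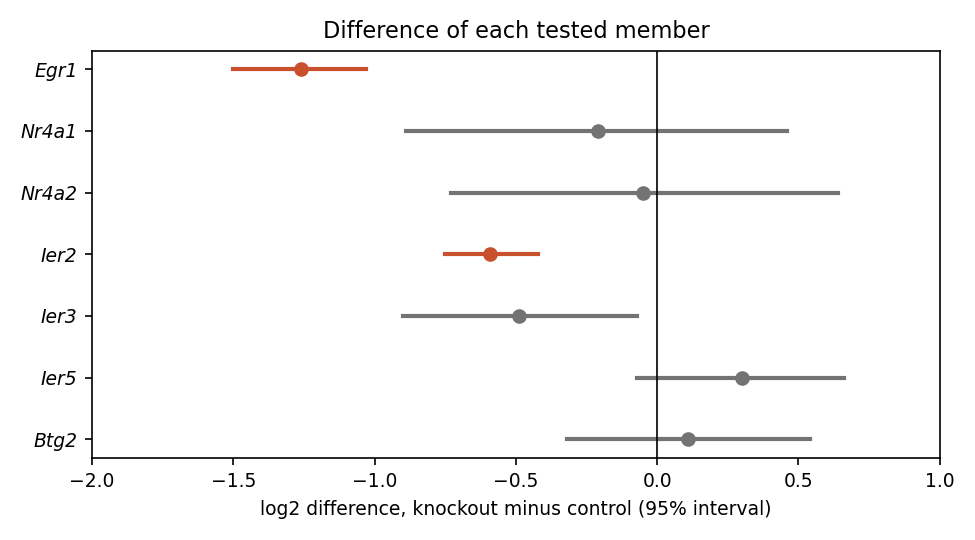
Log2 difference (knockout minus control) of each tested member as a point, with its 95% interval from the limma fit as a bar, in orange-red where called and grey where not. The interval of Egr1 (-1.50 to -1.03) lies below that of Ier2 (-0.75 to -0.42), and those of Nr4a1, Nr4a2, Ier5 and Btg2 include 0.

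Btg2, a p53 target that recruits the CCR4-NOT deadenylase and slows cell division, lies on chromosome 1 (134074865 to 134079155). It had 39.1, 40.83 and 40.75 CPM in control and 32.68, 51.39 and 48.73 CPM in knockout. Control libraries were nearly identical, with a coefficient of variation of 2.43% that matches the 2.48% of counting error, while knockout libraries spread on both sides of them (22.9%). The log2 difference was 0.11 (SE 0.19, 95% interval -0.32 to 0.54).

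Promoter sequence was examined for the members because the genes are known for shared response elements. Windows of the RefSeq promoter table (GRCm38.p6, 250 bases before to 50 after a start) were examined for 7 of the 10 members. Egr1, Egr3 and Ier2 were not examined, so the motif results cover neither of the 2 called members. The searched motifs were TGACGTCA (the full cAMP response element), its short form TGACG (which lies within the full element), the CArG box of serum response factor, the Egr sites GCGTGGGCG and GCGGGGGCG, the Nr4a site AAAGGTCA, the ETS site CCGGAAG and, on the gene strand only, TATAAA. All others were searched on both strands. The short form was in 5 of 7 members (Nr4a1, Nr4a2, Nr4a3, Egr2 and Btg2) and in 20.8% of all 32851 windows of this length. Members are counted as genes with a match in any of their windows, of which Egr2 has several, and by that count 23% of all 27025 genes hold the short form. The full element was in Btg2 and in 1.79% of windows (2.03% of genes), the CArG box in Egr2 and in 1.63% (1.81% of genes), and GCGGGGGCG in Nr4a1 and in 2.91% (3.31% of genes). The other motifs were in none of the 7 and in 0.612% (GCGTGGGCG), 1.51% (AAAGGTCA), 8.86% (CCGGAAG) and 8.32% (TATAAA) of windows. The windows of the members were all richer in G and C than the median window (52.7%), from 54.0% for Ier3 to 81.7% for Nr4a2. The shares over all windows and genes were not matched for this content, so they are no measure of enrichment in the members. A match is a string in a window, not a bound site.

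The 250 bases upstream of the start are shown for Nr4a1 and Nr4a2, which were expressed and carry 4 short forms each, and for Btg2 with its full element. Each is written 5′ to 3′ on the strand of the gene, with matches in capitals; CGTCA is the short form read on the other strand and CGCCCCCGC the Egr site likewise.
Nr4a1 (chr15:101266596-101266845, plus strand): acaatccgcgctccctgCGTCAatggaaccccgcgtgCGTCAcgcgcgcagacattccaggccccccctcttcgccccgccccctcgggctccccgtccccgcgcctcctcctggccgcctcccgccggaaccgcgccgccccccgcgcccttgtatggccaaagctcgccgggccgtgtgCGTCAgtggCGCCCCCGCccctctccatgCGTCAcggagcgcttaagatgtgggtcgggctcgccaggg
Nr4a2 (chr2:57124004-57124253, minus strand): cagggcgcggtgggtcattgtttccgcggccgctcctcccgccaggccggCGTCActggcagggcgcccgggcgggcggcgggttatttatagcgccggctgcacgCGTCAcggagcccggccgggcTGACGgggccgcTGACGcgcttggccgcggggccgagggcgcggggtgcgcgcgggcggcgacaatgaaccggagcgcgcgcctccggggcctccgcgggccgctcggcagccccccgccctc
Btg2 (chr1:134079156-134079405, minus strand): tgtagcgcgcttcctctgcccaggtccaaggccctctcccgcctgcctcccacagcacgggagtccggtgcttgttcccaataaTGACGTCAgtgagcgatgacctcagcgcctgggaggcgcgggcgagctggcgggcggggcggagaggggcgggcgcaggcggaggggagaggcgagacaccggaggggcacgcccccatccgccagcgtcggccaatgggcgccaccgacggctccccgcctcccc

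For the 2 members near 0 reads that also matched, a stretch of 30 bases is shown, with a CArG box and a short form in Egr2 and a pair of short forms in Nr4a3.
Egr2 (chr10:67537794-67537823, plus strand): agtCCATATATGGgcagcgaCGTCAcgggt
Nr4a3 (chr4:48045083-48045112, plus strand): gtcccatgtCGTCAcatTGACGtctcgcat
Nr4a3, nearly without reads, had 4 short forms, as many as Nr4a1 and Nr4a2.

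Levels were compared between genes per kilobase of exon (RPKM, exon lengths from GENCODE M21). In control the order was Ier2 (247 ± 13.4 RPKM), Ier3 (71.1 ± 1.79), Egr1 (39.9 ± 2.10), Btg2 (14.7 ± 0.356), Ier5 (12.5 ± 1.53), Nr4a1 (3.39 ± 0.642) and Nr4a2 (3.36 ± 1.08), each as SD with n = 3. Among neighbours in this order only Btg2 and Ier5, and Nr4a1 and Nr4a2, had overlapping libraries. In knockout Ier2 (165 ± 4.23 RPKM) and Ier3 (52.0 ± 13.8) again led. Egr1 (16.6 ± 0.951), Btg2 (16.1 ± 3.69) and Ier5 (15.4 ± 1.88) then overlapped one with the next, whereas in control the mean of Egr1 was 2.72 times that of Btg2.

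Ratios of reads within a library do not depend on how libraries are scaled. For every 100 Ier2 reads, control had 47.5, 47.7 and 47.5 Egr1 reads and knockout had 30.6, 27.1 and 31.6. The control ratios were thus nearly equal (mean 47.6, SD 0.138), although the level of each gene differed between libraries. Counting error alone in control is 1.18% for Egr1 and 0.811% for Ier2, which is larger than this spread. Nothing is therefore read from how close the control ratios were. Ier5 stood at 10.4, 10.5 and 11.7 reads per 100 Ier2 reads in control and 22.7, 19.1 and 18.5 in knockout, without overlap, and Btg2 at 10.7, 11.3 and 10.2 against 13, 20 and 20. Ier2 itself was at 0.666 times control, which raises every ratio to it in knockout. In CPM, Ier5 overlapped between the groups, and Btg2 in knockout replicate 1 (32.68 CPM) lay below every control library. The ratios of Ier3, Nr4a1 and Nr4a2 to Ier2 overlapped between the groups.

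**Figure D3:**
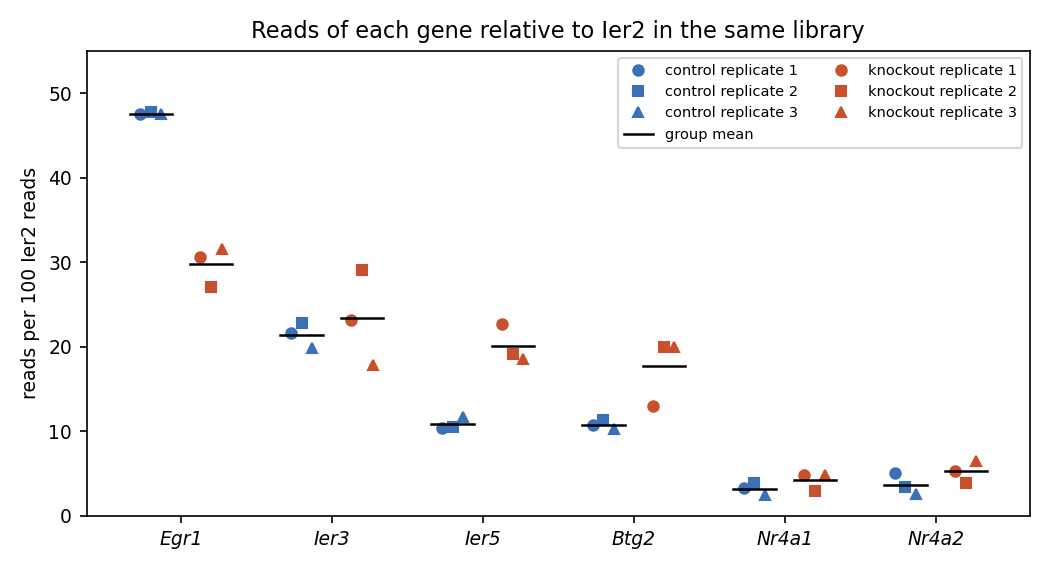
Reads of 6 members per 100 Ier2 reads of the same library, for 3 control (blue) and 3 knockout (orange-red) libraries, with group means as black lines. Egr1 sits at 47.5 to 47.7 in control and 27.1 to 31.6 in knockout, while the Ier5 and Btg2 ratios are higher in each knockout library than in any control library, with Ier2, the denominator, at 0.666 times control.

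Libraries did not rank the members alike. Among control libraries, replicate 3 was highest for Egr1, Ier2 and Ier5 and replicate 2 for Nr4a1, Ier3 and Btg2. In knockout, replicate 2 was lowest for Egr1, Nr4a1 and Nr4a2 and highest for Ier2, Ier3 and Btg2. No library was highest of its group in more than 3 of the 7 members.

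Genes with the most similar pattern were found by the root mean square distance between log2 values over the 6 libraries, each gene centred on its own mean. The libraries share pool and genotype, so likeness largely reads the group difference. Closest to Egr1 were Tuba1a (distance 0.09), Fos (0.11), Zfp36 (0.15), Pygm (0.16) and Myl10 (0.17). Closest to Ier2 were Coq8a, Aldh1a1, Mettl7a1, Arrdc4 and Cd96 (0.06 to 0.08). Closest to Nr4a1 were Alms1, Zfp160, Plxna4, Coq10b and Zswim3 (0.08 to 0.10) and to Btg2 Acbd4, Gcc1, Ryk, Zfp26 and Rnf25 (0.06 to 0.08).

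Other immediate early genes were read from the same fit. Of 6 tested AP-1 genes 4 were called lower and 0 higher, beside 0.292% and 0.407% of all tested genes, with a median log2 difference of -0.86. Fosb, a Fos relative, fell by 1.77 on the log2 scale (SE 0.21, adjusted p = 0.00323, limma), with 44.5, 52.4 and 43.4 CPM in control and 11.1, 17.0 and 13.4 in knockout. Fos (-1.12), Jun (-0.95) and Junb (-0.77) were the others, with the Junb call lost without knockout replicate 3. Fosl2, named after its value was seen, had the 1 positive difference of the AP-1 genes (0.84). Fosl2 was higher without overlap of the groups, as were 8.52% of all tested genes, but was not called. By the same measure 4 AP-1 genes were lower without overlap, beside 8.01% of all tested genes. Of 36 further immediate early genes 4 were called lower and 0 higher, beside the same shares of all tested genes, with a median of -0.21. At an unadjusted p under 0.05 there were 11 lower and 2 higher (Nfil3 and Cd69, named after their values were seen), beside 4.72% and 5.58% of all tested genes. The count called lower was 7 with a filter at 5 CPM, with log2(CPM + 1) and with quantile normalization, and 2 without the filter or without the trend. The 4 called lower were Dusp1, a MAP kinase phosphatase (-0.90, SE 0.08), Zfp36, which destabilizes mRNA (-0.98, SE 0.10), Ppp1r15a, which returns the stress-phosphorylated eIF2 alpha to its base state (-0.87, SE 0.11), and the transcription factor Klf6 (-0.68, SE 0.12). Klf6 stayed called without control replicate 3, but omitting any of the other 5 libraries ended its call (adjusted p = 0.0892 to 0.154, limma). Without the filter or without the trend, Klf6 and Ppp1r15a were not called, nor was Junb without the trend or Klf6 with a replicate block (adjusted p = 0.108, limma). These lists were assembled with earlier results known and are no independent evidence of direction.

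Transcripts of the kinases and factors that act on these promoters were not called. Of 32 such genes 0 were called lower or higher by limma or voom. Over all tested genes limma called 0.292% lower and 0.407% higher, and voom 0.399% and 0.469%. At an unadjusted p under 0.05 there were 0 lower and 1 higher, beside 4.72% and 5.58% of all tested genes. The 1 higher was Map2k1, a MAP kinase kinase, named after its value was seen. The median log2 difference of the 32 genes was 0.09. Mapk14, the stress kinase p38 alpha, was at 379.4 ± 42.1 CPM in control and 391.6 ± 25.4 CPM in knockout, a log2 difference of 0.05 (95% interval -0.16 to 0.26). Srf, named after its values were seen, encodes serum response factor and was at 27.1 ± 1.05 CPM in control and 36.8 ± 7.44 CPM in knockout, with a log2 difference of 0.42 (SE 0.19, adjusted p = 0.489, limma). Transcript levels do not show kinase or factor activity.

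Relatives and partners of the members were not called either. Of 16 tested, 0 were called by limma or voom, with 2 lower (Btg1 and Tob2) and 1 higher (Rxrb), named here after their values were seen, at an unadjusted p under 0.05 (4.72% and 5.58% of all tested genes), and the median was -0.03. Cnot8, a deadenylase that binds Btg proteins, had a log2 difference of 0.14 (95% interval -0.06 to 0.34) and Kdm1a, the histone demethylase LSD1, of -0.03 (-0.31 to 0.26). Nab1 and Nab2, corepressors that bind Egr proteins, and Egr4 were also named after their values were seen. Nab1 was at 137.9 ± 3.08 and 121.6 ± 15.4 CPM and Nab2 at 12.5 ± 3.47 and 10.4 ± 2.52 CPM, with log2 differences of -0.19 (SE 0.11) and -0.26 (SE 0.30). Egr4, the remaining Egr gene, had no reads (0 CPM) in any library.

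Among 17 tested genes discussed as Egr or Nr4a targets, including cell cycle genes tied to quiescence, 1 was called lower and 0 higher. Of all tested genes 0.292% were called lower and 0.407% higher, and the median of the targets was -0.12. The called target was Thbs1, a matrix glycoprotein, with 129.1, 122.0 and 104.9 CPM in control and 48.8, 38.3 and 34.5 CPM in knockout. Its log2 difference was -1.56 (SE 0.16, adjusted p = 0.00115, limma). At an unadjusted p under 0.05 there were 4 lower and 2 higher (4.72% and 5.58% of all tested genes), and voom called 1 lower and 1 higher (0.399% and 0.469%). The 2 higher, named after their values were seen, were Tgfb1 and Fn1. Tgfb1 was at 69.9 ± 0.573 CPM in control and 109.7 ± 12.4 CPM in knockout (0.64, SE 0.12, adjusted p = 0.0513, limma). Fn1 was at 2.89 ± 2.38 and 12.8 ± 7.63 CPM (2.54, SE 0.80, adjusted p = 0.288, limma). Of 15 heat shock genes, which also respond to cell handling, 1 was called higher and 0 lower, beside 0.407% and 0.292% of all tested genes. The median of this list was 0.16. Unadjusted p was under 0.05 for 3 higher (Hspa8, Hsph1 and Dnaja1) and 0 lower, beside 5.58% and 4.72% of all tested genes. Hsph1 (0.70, SE 0.17) and Dnaja1 (0.34, SE 0.08), named after their values were seen, were not called. Also named afterwards and not called were Hspa1a (-0.14, SE 0.60), Hspa1b (-0.13, SE 0.40), Dnajb1 (0.05, SE 0.11) and Hsp90aa1 (-0.10, SE 0.07). Over the list 10 differences were positive and 5 negative. Hspa8, a constitutive chaperone, was at 730.7 ± 19.7 CPM in control and 958.0 ± 25.7 CPM in knockout, a difference of 0.39 (SE 0.05, adjusted p = 0.0051, limma) whose call was lost without knockout replicate 3, without the filter and without the trend. Handling stress as such was not measured.

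**Figure D4:**
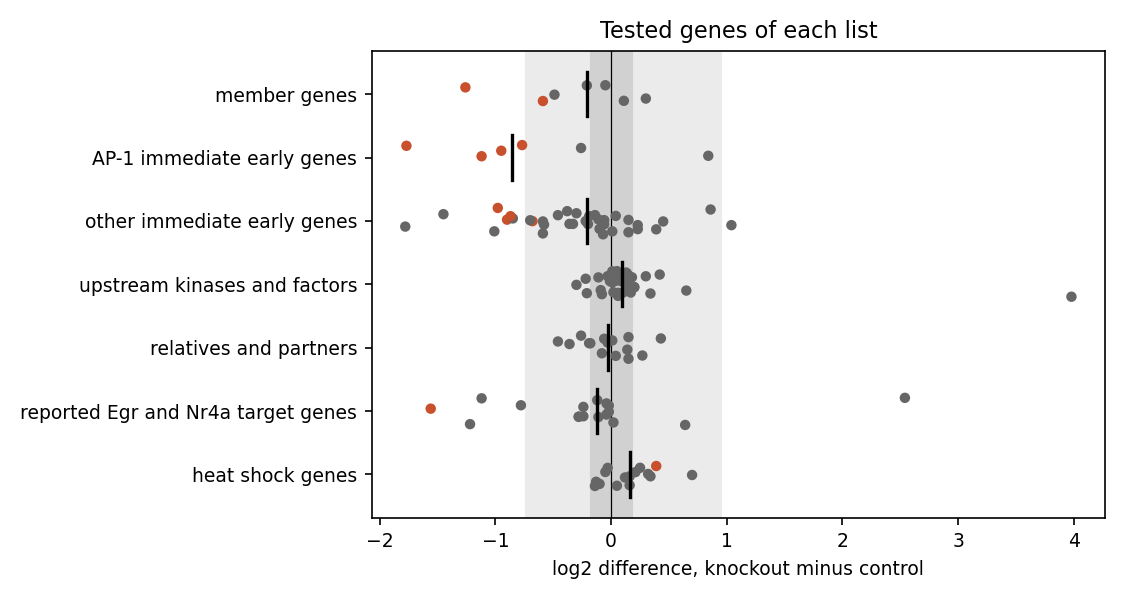
Log2 difference (knockout minus control) of the tested genes of each list as points, orange-red where called, with the list median as a black bar and bands for the middle 50% (-0.17 to 0.18) and 90% (-0.74 to 0.95) of all tested genes. The bands describe single genes and are no measure for a median. Called points lie at negative values in the member, AP-1, other immediate early and target lists and at a positive value, Hspa8, in the heat shock list.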

How the data were processed

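RNA-seq was analysed in 6 libraries of sorted mouse LT-HSC, 3 per genotype. The tools named are FastQC, HISAT2, featureCounts and limma, with build mm10, per the submitters' processing notes. Not given in the sources used here are versions, strand and multi-mapping settings. Per gene, the authors deposited log2 values with the form of log2 CPM and an offset of 0.5 reads. Undoing it gave whole reads for 100.0% of values within 0.01, and CPM here are these reads over the same effective size. Totals ran from 36747729 to 43743795 reads, and 25275 gene IDs had a RefSeq symbol.

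The 13018 genes that reached 1 CPM in 3 or more libraries entered limma (version 3.58.1, R version 4.3.3, functions lmFit and eBayes with trend), 2 groups and no block, with Benjamini-Hochberg adjustment over all of them. Genes with adjusted p below 0.05 were called. Intervals are 95% moderated intervals. The fit was tested on simulated data. Pairs of libraries all differed by more than sampling noise (chi-square per degree of freedom 42.43 to 94.4).

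The members and lists were chosen with earlier results of these data known. Named were all members, the called genes of each list (at most 6, by smallest adjusted p, and where none was called the 2 most abundant), and the 5 genes closest in pattern to Egr1, Nr4a1, Ier2 and Btg2. For markers, whose 2 most abundant genes the rule also names, sums are given except for LT-HSC. A gene in each of 2 lists that the rule names is not reported here. Alternatives were other filters, offsets, scalings, priors and voom, a replicate block and each library left out. Figures were drawn with matplotlib 3.10.9.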

Additional observations from a re-analysis of the deposited data

How the results depend on the processing

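The 2 members called lower stayed called on leaving out each library (2 in each of these fits) and in every other alternative except no filter and no trend, where 1 was called, because Ier2 (-0.59) lost its call. None was called higher under any alternative. Of all tested genes, 14 were called lower and 19 higher without the filter, 59 and 105 with log2(CPM + 1), 15 lower without the trend, 19 to 28 lower and 20 to 64 higher without single libraries (over 1.5 times fewer lower without control replicate 2 or 3 or any knockout replicate, and fewer higher without any knockout replicate). Context genes called higher numbered 0 without the filter or the trend, 2 with the filter at 5 CPM, log2(CPM + 1), log2(CPM + 0.1), median centring, quantile normalization, robust eBayes and voom, and 0 to 1 without single libraries, where 8 to 9 were called lower. Leaving out single libraries turned the sign of uncalled genes, namely Nr4a1 (-0.36 to 0.02), Nr4a2 (-0.24 to 0.20), Btg2 (-0.01 to 0.32), Mapk14 (-0.04 to 0.12) and Kdm1a (-0.16 to 0.08). The cause of these changes was not tested. Same-numbered libraries did not deviate together (correlations -0.0211 to 0.0195), so the numbers pair nothing. A replicate block left 23 genes called lower and 44 higher, with both members still called. A negative binomial count model was not run, since the deposited unit is log2. Egr2, Egr3 and Nr4a3 had 0 to 36 reads a library and did not enter the fit. Whether depth or another step limits their reads was not tested.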
